A study of Mus musculus with 18 samples.

Results

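The 44 genes described here encode lysosomal hydrolases, lysosomal membrane proteins and regulators of the lysosome, measured by RNA sequencing in mouse spleen and in macrophages isolated from spleen. They were chosen by gene symbol: every row of the deposited count table whose Ensembl identifier carries one of the symbols in GENCODE M21 is a member. All 44 symbols were found, with 1 identifier each, among the 55414 identifiers of the table, and all 44 passed the filter on low counts in each comparison. They comprise 10 cysteine proteases (Ctsb, Ctsc, Ctsf, Ctsh, Ctsk, Ctsl, Ctso, Ctss, Ctsz, Lgmn), 4 other proteases and thioesterases (Ctsa, Ctsd, Tpp1, Ppt1) and 10 glycan and glycolipid hydrolases (Hexa, Gla, Glb1, Gaa, Gusb, Naglu, Neu1, Man2b1, Manba, Idua). The others are 4 sulfatases (Galns, Arsa, Arsb, Ids), 6 lipid hydrolases, activators and cholesterol carriers (Psap, Npc1, Npc2, Lipa, Asah1, Smpd1), 7 membrane proteins (Lamp1, Lamp2, Cd63, Cd68, Scarb2, Mcoln1, Cln3), and Tfeb, Tfe3 and Grn.

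All mice were wild-type C57BL/6J, and no genetic change was made in any group. In the first experiment mice breathed filtered air (n = 4 libraries) or PM2.5, fine airborne particles (n = 4), for 30 days and the whole spleen was taken. The second experiment used macrophages purified from spleens of mice given air (n = 5) or PM2.5 (n = 5) for 30 days, and the labels also mention filtered air after that exposure without saying for how long. The labels give neither the age nor the sex of the mice nor how the macrophages were isolated. Titles call the libraries biological replicates and do not say how many animals each holds, so that p-values judge differences against the spread between these libraries. Titles of the PM2.5 groups begin with CAP, which the labels do not spell out, and also hold the word Air; they were read as PM2.5 because the protocol names air and PM2.5 as the exposures. The first macrophage library with a CAP title has a treatment tag of air, unlike the others of its group, and was grouped by its title.

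The lysosome is the acidic compartment in which cells break down proteins, glycans, lipids and nucleic acids taken up from outside or delivered from within. Macrophages of the splenic red pulp engulf aged red blood cells and digest them in phagosomes that fuse with lysosomes. The transcription factors TFEB and TFE3 bind short E-box sequences in front of many lysosomal genes and raise their transcription when they enter the nucleus, a step governed mainly by phosphorylation of the proteins.

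Promoter stretches are shown first because the E-box is the sequence these factors are known to bind. RefSeq promoter windows on GRCm38.p6, running from 250 bases before to 50 bases after a transcription start, were found for 39 of the 44 members. The 6-base E-box CACGTG, which reads the same on both strands, was present in the windows of 13 of these 39 genes (33.3%) and of 2187 of 27025 genes in the whole promoter table (8.09%). The 8-base form TCACGTGA, which contains the 6-base form, was present in 5 members (12.8%: Cln3, Ctsa, Ctsd, Gla and Mcoln1) and in 1.12% of all genes. A match is a description of the letters and does not show binding. The stretches below are those of the aspartic protease Ctsd (chr7:142387908-142387937, minus strand), the membrane protein Cln3 (chr7:126583340-126583369, minus strand), the calcium channel Mcoln1 (chr8:3500462-3500491, plus strand), the membrane glycoprotein Lamp1 (chr8:13159096-13159155, plus strand) and the cysteine protease Ctsf (chr19:4855059-4855118, plus strand). Each is written 5′ to 3′ on the strand of its gene, with the E-box in capitals.
Ctsd: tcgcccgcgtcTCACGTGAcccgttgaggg
Cln3: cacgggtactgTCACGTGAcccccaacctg
Mcoln1: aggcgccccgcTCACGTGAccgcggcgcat
Lamp1: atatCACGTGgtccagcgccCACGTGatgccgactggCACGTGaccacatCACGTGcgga
Ctsf: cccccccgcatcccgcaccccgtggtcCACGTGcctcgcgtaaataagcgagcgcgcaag
The Lamp1 stretch holds 4 copies of the 6-base E-box. Ctsd, Cln3 and Mcoln1 share the 8-base form. The stretches of these genes touch exons annotated in GENCODE M21, so that they are not wholly outside transcribed sequence. Another window of Cln3 (chr7:126585768-126586067) holds no E-box.

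Total counts ranged from 16493694 to 20352346 per spleen library and from 18107264 to 33844807 per macrophage library. Levels are given as CPM, the usual depth-scaled count unit, with all 18 libraries scaled together. The isolated preparations carried the labelled cell type: the summed level of 9 macrophage markers (Adgre1, Csf1r, Mertk, Axl, Fcgr1, C1qa, C1qb, C1qc, Cd14) lay between 11621 and 16730.3 CPM in macrophage air libraries and between 345 and 475 CPM in spleen air libraries. They were not free of other cells, since 6 B cell markers still summed to between 1942 and 3153 CPM in macrophage air against between 4850.1 and 5716 CPM in spleen air. Erythroid transcripts were higher in the isolated preparations than in spleen: all 8 erythroid markers passed the test (median log2 fold change 3.74), with sums between 2415 and 8445 CPM in macrophage air against between 283 and 2776 CPM in spleen air, a ratio of the means of 5.35. Spleen libraries differed in what else they held. The sum of 8 erythroid markers was 2776, 283, 371 and 623 CPM in spleen air replicates 1 to 4 and 825, 14519, 3916 and 8972 CPM in spleen PM2.5 replicates 1 to 4, and spleen air replicates 3 and 4 carried liver transcripts (42.6 and 84.2 CPM over 5 markers, against at most 7.36 CPM in the other spleen libraries).

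Summed over the 44 genes, lysosomal transcripts made up between 5387 and 6276 CPM in spleen air and between 23454 and 29987 CPM in macrophage air, a ratio of the means of 4.58. The part of the erythroid and other cells in this difference was not tested. With PM2.5 the sum lay between 5364 and 6080 CPM in spleen and between 20518 and 27970 CPM in macrophages, inside or overlapping the range of the air libraries in each material. In these bulk samples fewer cells of a type and less RNA per cell cannot be told apart.

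To compare genes with each other, levels were divided by the length of the gene's exons and are given as CPM per kb. Psap, which encodes prosaposin, the precursor of the saposins that help hydrolases reach their lipid substrates, ranked first of the 44 in all 4 groups. Its level per kb was 414 ± 30.4 (SD, n = 4) in spleen air and 2351 ± 227 (SD, n = 5) in macrophage air, 21.7% and 29.9% of the sum over the members. In spleen air it was followed by Ctss, the cathepsin that trims the invariant chain for antigen presentation, at 319 ± 78.1, and by the carboxypeptidase Ctsz at 202 ± 16.6 CPM per kb. Ctsb, a broad endopeptidase, ranked sixth there with 85.3 ± 22.0 and second in macrophage air with 1039 ± 142 CPM per kb. In macrophage air Ctss (754 ± 82.3), Ctsd (544 ± 75.2) and the asparaginyl protease Lgmn (429 ± 47.7) came next, and Lamp1, Cd68 and Ctsz (339 ± 40.4, 321 ± 30.6 and 314 ± 28.5) differed from each other by less than their SD. The order at the lower end also changed: Ctsf had the lowest level in spleen air (0.593 ± 0.0713 CPM per kb) and Ctsk the lowest in macrophage air (0.365 ± 0.232). Cd63 was 12th of 44 in spleen air (37.0 ± 9.65) and 42nd in macrophage air (6.30 ± 0.785). With the length of the longest transcript in place of all exons, the ranks of Psap, Ctsb, Ctss and Ctsd in both air groups did not change. Others moved: in macrophage air Cd68 went from rank 7 to 9, Ctsz from 8 to 10, Ctsf from 41 to 36 and Cd63 from 42 to 41. In spleen air Cd63 went from rank 12 to 13.

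**Figure D1:**
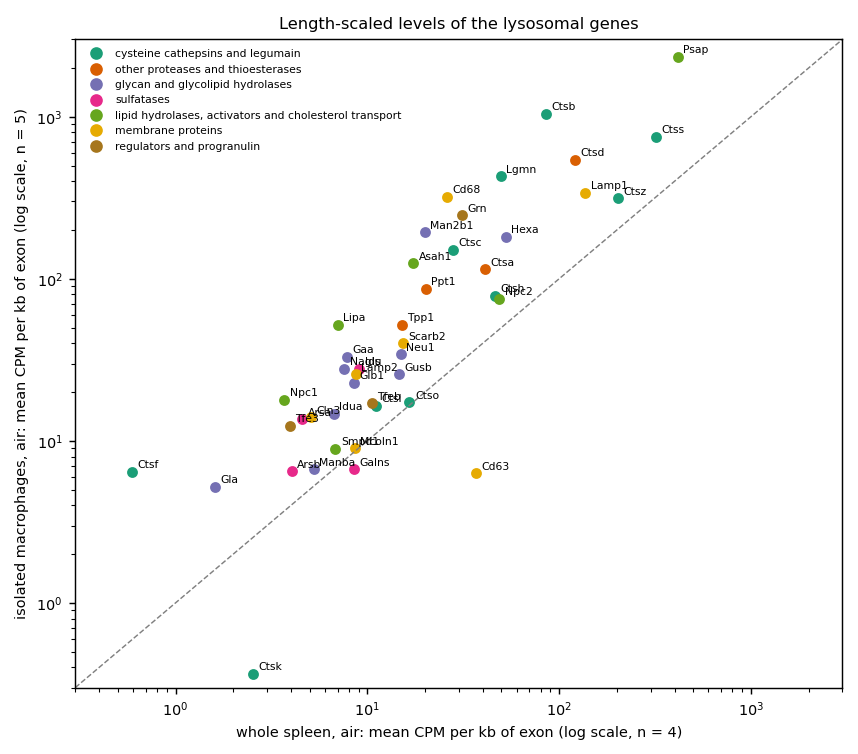
Mean length-scaled level of the 44 genes (CPM per kb of exon, log axes) in spleen air (x axis, n = 4) and macrophage air (y axis, n = 5), with each point a gene coloured by its role and the dashed line marking equal levels. Psap stands highest in both, most genes lie above the line, and Cd63 and Ctsk lie farthest below it.

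Isolated macrophages were compared with whole spleen within the air groups to see how far each transcript is concentrated in the macrophage preparation. Of the 44 genes, 39 were higher and 2 lower in macrophages (adjusted p under 0.05, edgeR quasi-likelihood test, Benjamini-Hochberg over all genes), and 3 did not pass the test. Of all 17779 genes tested, 33.3% were higher and 33.3% lower. At least 2-fold higher were 30 members, against 20.0% of all genes. The median log2 fold change of the members was 1.52, and that of all genes 0.000536. The preparations are separate experiments, so that material and experiment cannot be told apart. Across 27 alternative analyses the number of members called lay between 37 and 42, with 35 higher and 2 lower in each of them.

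The cysteine proteases ranged from -2.76 to 3.61 on the log2 scale. Ctsb (chr14:63122462-63145923, GRCm38) was at 713, 466, 419 and 468 CPM in spleen air and at 5377, 7086, 6166, 5556 and 7247 CPM in macrophage air. Its log2 fold change was 3.61 (SE 0.19, 12.2-fold, adjusted p = 6.38e-12), and the groups did not come near each other. Ctsf (chr19:4855130-4860918), another cathepsin, had 2.70, 3.50, 2.79 and 2.96 CPM in spleen air and 28.3, 37.1, 30.0, 26.5 and 40.0 CPM in macrophage air, which gives 3.43 on the log2 scale (SE 0.30, adjusted p = 9.48e-09). Ctsf had the third largest fold change of the members and ranked 41st by length-scaled level in macrophage air (rank 36 by the longest transcript). Lgmn (log2 fold change 3.11), Ctsc, which activates granule serine proteases (2.44), Ctss (1.24), the aminopeptidase Ctsh (0.76), Ctsz (0.64) and Ctsl (0.57) were also higher. Ctso, at 0.06 (95% interval -0.14 to 0.26), did not pass the test.

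Ctsk, the collagen-degrading cathepsin best known from osteoclasts, went the other way. It had 6.37, 4.22, 2.79 and 1.92 CPM in spleen air and 1.04, 0.181, 0.451, 0.308 and 0.781 CPM in macrophage air, so that the lowest spleen library lay above the highest macrophage library. Its log2 fold change was -2.76 (SE 0.42, adjusted p = 1.22e-05), on between 3 and 26 counts per macrophage air library. All 6 stromal markers tested (Col1a1, Col1a2, Col3a1, Pdgfrb, Pdgfra, Acta2) were also lower in macrophages, with sums between 199.6 and 368 CPM in spleen air and between 9.68 and 13.4 CPM in macrophage air. All 6 T cell, all 4 platelet and 5 of 6 B cell markers tested were lower too. The part of all these cells in the Ctsk result was not tested.

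All 4 other proteases and thioesterases were higher in macrophages, with a median log2 fold change of 1.94. Ctsd, the main aspartic protease of the lysosome, rose from 301, 267, 272 and 299.6 CPM in spleen air to 1163, 1385, 1124, 1188 and 1540 CPM in macrophage air (log2 fold change 2.17, SE 0.14, adjusted p = 1.93e-10). An annotated transcript on the same strand, Gm49369, shares 808 exon bases with Ctsd, and reads there cannot be assigned. Tpp1, a tripeptidyl peptidase, had 91.3, 79.2, 72.7 and 68.7 CPM in spleen air against 249.8, 289, 253, 242 and 305 CPM in macrophage air (1.78). Ppt1, which removes fatty acids from proteins, differed by 2.10, and Ctsa, the carboxypeptidase that protects Glb1 and Neu1, by 1.47.

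All 10 glycan and glycolipid hydrolases were higher in macrophages, with a median log2 fold change of 1.56. Man2b1 (chr8:85083270-85098282), the lysosomal alpha-mannosidase, was at 134, 199.8, 161 and 146 CPM in spleen air and at 1454, 1577, 1594, 1358 and 1789.9 CPM in macrophage air (log2 fold change 3.28, SE 0.15, adjusted p = 1.27e-12). It had the smallest p of the 44 members in this comparison. Hexa, the alpha subunit of beta-hexosaminidase, had 109, 100.3, 98.2 and 113 CPM in spleen air and 343, 379, 373, 327 and 384 CPM in macrophage air (1.78). Gla, alpha-galactosidase A, had the lowest length-scaled level of the class, with 5.77, 4.85, 5.29 and 4.99 CPM in spleen air and 19.2, 14.8, 17.5, 17.8 and 15.9 CPM in macrophage air (1.71). Also higher were Gaa (2.06), Naglu (1.88), Glb1 (1.41), Neu1 (1.19), Idua (1.13) and Gusb (0.83). Manba, the beta-mannosidase, differed least (0.35, adjusted p = 0.00722), and without spleen air replicate 2 its value was 0.22 (adjusted p = 0.0912).

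Among the sulfatases, which strip sulfate groups from glycosaminoglycans and sulfolipids, Ids (1.62), Arsa (1.56) and Arsb (0.68) were higher in macrophages. Ids was at 58.0, 41.1, 46.1 and 40.2 CPM in spleen air and at 143, 136, 150.1, 123 and 159 CPM in macrophage air. Galns stood apart from them with 16.9, 26.0, 20.4 and 26.7 CPM in spleen air and 18.2, 18.3, 16.2, 20.9 and 14.97 CPM in macrophage air, overlapping groups with a log2 fold change of -0.34 (adjusted p = 0.0600). It was called lower in 13 of the 27 alternative analyses.

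All 6 lipid hydrolases, activators and cholesterol carriers were higher, with a median of 2.39, the highest of the 7 classes. Psap (chr10:60277627-60302597) had 1083, 1169, 1058 and 1240.2 CPM in spleen air and 6270.5, 6231, 6608, 5726 and 7414 CPM in macrophage air (log2 fold change 2.504, SE 0.14, adjusted p = 1.40e-11). Lipa, the acid lipase that frees cholesterol from its esters, differed by 2.90, and the acid ceramidase Asah1 by 2.85. The cholesterol carriers Npc1 and Npc2, which act in sequence, differed by 2.28 and 0.62. Smpd1, acid sphingomyelinase, showed the smallest difference of the class (0.39, adjusted p = 0.0148), with 17.2, 22.3, 21.02 and 30.4 CPM in spleen air and 29.0, 27.8, 28.9, 30.9 and 32.8 CPM in macrophage air. Without spleen air replicate 1 it was 0.23 (adjusted p = 0.111).

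The membrane proteins split. Cd68 (chr11:69664213-69666153), a macrophage lysosomal glycoprotein, had the largest fold change of the 44 members: 44.3, 34.5, 25.1 and 27.3 CPM in spleen air against 382, 409, 413, 355 and 458 CPM in macrophage air (log2 fold change 3.62, SE 0.18, adjusted p = 4.11e-12). Lamp1, among the most abundant lysosomal membrane glycoproteins, had 412, 299, 354 and 403 CPM in spleen air and 834, 992, 912, 769 and 1029.8 CPM in macrophage air (1.31). Lamp2 (1.57), Cln3 (1.46) and Scarb2, the receptor that carries glucocerebrosidase to lysosomes (1.38), were also higher. Mcoln1, the lysosomal calcium release channel, was at 71.6, 62.1, 60.04 and 65.8 CPM in spleen air and 68.4, 71.4, 64.8, 70.1 and 64.4 CPM in macrophage air, with a log2 fold change of 0.06 (95% interval -0.17 to 0.29). It shares the 8-base E-box shown above with Ctsd (2.17) and Cln3 (1.46).

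Cd63 (chr10:128900989-128912822), a tetraspanin of late endosomes, exosomes and platelet granules, was the other member that was lower in macrophages. It had 187, 104, 122 and 132 CPM in spleen air and 22.3, 21.7, 28.4, 21.7 and 21.9 CPM in macrophage air (log2 fold change -2.55, SE 0.17, adjusted p = 2.14e-10). The lowest spleen library was above the highest macrophage library by more than the whole range of the macrophage group. All 4 platelet markers tested were lower in macrophages too, with sums over 5 markers between 54.1 and 161 CPM in spleen air and between 7.61 and 15.99 CPM in macrophage air, and so were the stromal markers. Lower as well were all 6 T cell, 5 of 6 B cell, 5 of 6 mesothelial, 4 of 6 endothelial and all 3 liver markers tested. Their part in the Cd63 result was not tested.

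The regulators were all higher. Tfe3 had 23.9, 41.4, 34.3 and 46.1 CPM in spleen air and 106, 112, 129, 104 and 124 CPM in macrophage air (log2 fold change 1.66, SE 0.15, adjusted p = 1.12e-08). Grn, the precursor of the granulins, a secreted protein that also acts inside lysosomes, had 80.3, 119, 102 and 133 CPM against 766, 907, 856, 779.6 and 968 CPM (2.98, adjusted p = 1.04e-11). Tfeb had 14, 75.1, 64.0 and 85.6 CPM in spleen air and 93.7, 85.5, 100.2, 107 and 95.9 CPM in macrophage air. Spleen air replicate 1 was far below the other spleen libraries, and replicate 4 reached the lowest macrophage library. The log2 fold change of Tfeb was 0.69 (SE 0.30, adjusted p = 0.0470), 0.32 without spleen air replicate 1 (adjusted p = 0.0314) and 1.09 without spleen air replicates 3 and 4 (adjusted p = 0.0201), and it was called in 8 of the 27 alternative analyses. Spleen air replicate 1 also had the highest share of mitochondrial counts of the spleen libraries (6.87%, against between 2.23% and 5.76%). The spleen library at 5.76%, PM2.5 replicate 2, had 53.3 CPM of Tfeb. Red pulp macrophage markers summed to 535 CPM in spleen air replicate 1 and to between 254 and 266 CPM in the other spleen air libraries. For neutrophil markers the sums were 81.1 CPM and between 3.07 and 5.49 CPM. The part of these differences in the Tfeb value was not tested.

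**Figure D2:**
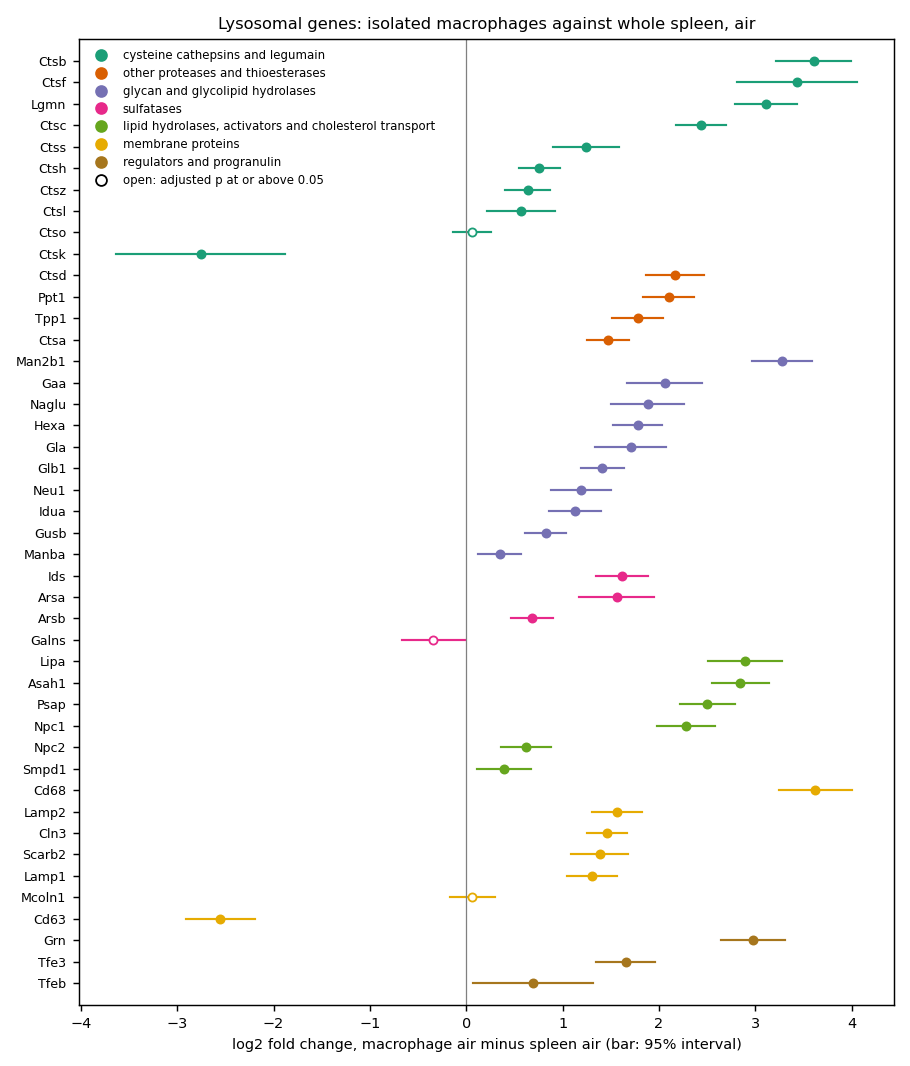
Log2 fold change of each of the 44 genes in macrophage air against spleen air (x axis, 95% interval as a bar), by role, with filled points for adjusted p under 0.05. Of the points, 39 are filled and to the right of 0, Ctsk and Cd63 are filled and to the left, and Ctso, Galns and Mcoln1 are open.

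Other genes of the pathway, from lists chosen by function, were read in the same test, beside the 33.3% of all genes that were higher and the 33.3% that were lower. Of 31 further hydrolases, activators and inhibitors tested, 26 were higher and 3 lower in macrophages, with the phospholipase Pla2g15 (log2 fold change 4.21), the phosphatase Acp2 (3.56) and the endolysosomal nuclease Pld3 (3.44) having the smallest p. The 3 lower were the protease inhibitor Cst7 (-2.81), Ctsw, a cathepsin of cytotoxic lymphocytes (-2.59), and lysozyme Lyz2 (-0.56). The proton pump that acidifies the lysosome showed smaller differences: of 19 V-ATPase genes, 10 were higher and 2 lower, with a median of 0.28. Atp6v0c (1.58) was the higher gene with the smallest p, and Atp6v0e2 (-4.37) and Atp6v1f (-0.48) were the lower ones. Of 25 genes of delivery to lysosomes, 18 were higher and 2 lower, with the smallest p for the sorting receptor Sort1 (5.27). Of 28 further membrane proteins, 20 were higher and 3 lower, with the smallest p for the metal transporter Slc11a1 (5.81). Of 28 genes of nutrient sensing at the lysosome, 15 were higher and 8 lower, the latter near the share over all genes. Those higher included Tfec (3.46) and Mitf (2.33), the other members of the TFEB family, and those lower included Lamtor4 (-1.19), a subunit of the Ragulator complex. Of 19 autophagy genes, 14 were higher and 0 lower, with the smallest p for the kinase Ulk1 (2.06).

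The comparison of PM2.5 with air in whole spleen asks whether 30 days of exposure changed lysosomal transcripts in the organ. None of the 44 genes passed the test (edgeR, smallest adjusted p = 0.108), and of all 16551 genes 0.0121% did. DESeq2 called 1 member, against 830 of all genes, and limma-voom 0 members, against 1 of all genes. At an unadjusted p under 0.05, 4 members were higher and 3 lower, against 8.93% and 7.76% of all genes. Groups did not overlap for 2 members that were higher with PM2.5 (4.31% of all genes) and for 0 that were lower (4.66%). The median log2 fold change of the members was 0.05 and that of all genes 0.02. For 43 of the 44 genes the 95% interval lay within a 2-fold change in either direction, and for 31 within a 1.5-fold change.

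Ctsf was the exception to those narrow intervals. Against 2.70, 3.50, 2.79 and 2.96 CPM in spleen air it had 5.09, 17.9, 8.17 and 9.23 CPM in spleen PM2.5, so that every PM2.5 library was above every air library. Its log2 fold change was 1.75 (95% interval 0.95 to 2.56, adjusted p = 0.108). It passed the threshold in 4 of 18 alternative analyses. These included DESeq2 (adjusted p = 5.99e-04), edgeR with no filter on low counts (0.00887) and the fit over all 18 libraries (0.00423). The remaining 1 was edgeR without spleen PM2.5 replicate 1 (0.0321). DESeq2, edgeR with no filter and the fit over all 18 libraries called 830, 461 and 1050 of all genes, against 2 in the main fit. Without both spleen PM2.5 libraries that held most erythroid transcripts the log2 fold change of Ctsf was 1.16 (adjusted p = 0.508). The PM2.5 library with most Ctsf, replicate 2, also had the highest sum of erythroid markers, and replicate 1 the lowest of both. Spleen air replicate 1 had more erythroid transcripts than PM2.5 replicate 1 (2776 against 825 CPM) and less Ctsf (2.70 against 5.09 CPM). Sums of macrophage and red pulp macrophage markers were highest in PM2.5 replicate 4 (643 and 621 CPM). They were 539 and 428 CPM in replicate 2 and lowest in replicate 1 (499.7 and 406 CPM). The part of other cells in the Ctsf value was not tested.

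Other members higher at an unadjusted p under 0.05 were Arsb, Man2b1 and Grn, each with a log2 fold change of 0.39. Arsb, which removes sulfate from dermatan and chondroitin sulfate, had 23.7, 24.3, 24.3 and 25.2 CPM in air and 30.9, 35.4, 26.8 and 35.2 CPM with PM2.5 (adjusted p = 0.194). The groups did not overlap, and Arsb passed the threshold in 1 of 18 alternative analyses, the fit over all 18 libraries (adjusted p = 0.0387). Exons of Arsb share 1948 bases with Gm26527 on the opposite strand, and since the strand setting of the counting is not given, reads there cannot be told apart. Man2b1 had 134, 199.8, 161 and 146 CPM in air and 246, 177, 208 and 211 CPM with PM2.5, with replicate 2 of PM2.5 below the highest air library. Grn had 80.3, 119, 102 and 133 CPM in air and 139, 124, 135 and 174 CPM with PM2.5, overlapping by that same PM2.5 replicate.

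In the other direction Cd63 was at 187, 104, 122 and 132 CPM in air and at 82.7, 94.9, 104 and 97.5 CPM with PM2.5 (log2 fold change -0.52, adjusted p = 0.165). Npc2, the soluble cholesterol carrier, had 276, 217, 296 and 272 CPM in air and 195, 221, 218 and 206 CPM with PM2.5 (-0.34). Lamp1 had 412, 299, 354 and 403 CPM in air and 269.7, 294, 322 and 316 CPM with PM2.5 (-0.29). These groups touched or overlapped by 1 or more libraries each. Ctsz was next, with 292, 285, 265 and 322 CPM in air and 241, 219, 276 and 247 CPM with PM2.5 (-0.25, adjusted p = 0.302).

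Among the other abundant members, Ctss had a log2 fold change of -0.16 in the spleen (95% interval -0.51 to 0.19). Psap had 1182, 1026, 1237 and 1425 CPM with PM2.5 (log2 fold change 0.09), Ctsb 471, 616, 556 and 602 CPM (0.12) and Ctsd 236, 281, 277 and 281 CPM (-0.09). Cd68 had 33.3, 36.5, 30.6 and 38.1 CPM (0.08), Mcoln1 52.8, 55.7, 76.9 and 68.6 CPM (-0.04) and Tpp1 90.8, 93.4, 88.8 and 82.5 CPM (0.19). All of these overlapped the air libraries given above. The regulators Tfeb (65.4, 53.3, 70.5 and 61.7 CPM with PM2.5) and Tfe3 (34.3, 40.5, 37.9 and 37.4 CPM) differed by 0.06 and 0.04, and the 95% interval for Tfeb ran from -0.82 to 0.95, with the low air library included. Hexa (103, 82.1, 124 and 112 CPM with PM2.5), Gla (5.84, 7.96, 4.09 and 7.18 CPM), Smpd1 (25.9, 19.3, 23.2 and 25.2 CPM) and Ids (52.2, 42.4, 40.8 and 54.8 CPM) also overlapped air.

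Markers of other cells moved in the same spleens. All 9 macrophage markers had a positive log2 fold change with PM2.5 (median 0.56), 8 of them at an unadjusted p under 0.05 and none past the adjusted threshold, and their sum lay between 499.7 and 643 CPM with PM2.5. That range did not overlap the air range of between 345 and 475 CPM, whereas the sum over the 44 lysosomal genes did overlap, with a ratio of the means of 0.999. Of 8 red pulp macrophage markers, 7 were positive (median 0.86), 5 at an unadjusted p under 0.05 and none past the adjusted threshold. Their sums overlapped, between 254 and 535 CPM in air and between 406 and 621 CPM with PM2.5. All 8 erythroid markers were positive (median 3.93), 8 at an unadjusted p under 0.05, and 6 mesothelial markers summed to between 2.74 and 5.29 CPM in air and between 37.5 and 216 CPM with PM2.5. Platelet and stromal markers, lower in macrophages like Cd63, had ratios of the mean sums of 1.63 and 1.66 in spleen, with overlapping groups. For T and B cell markers, most of them also lower in macrophages, the ratios were 0.764 and 0.850, and the groups did not overlap. T cell sums lay between 718 and 1047 CPM in air and between 566 and 681 CPM with PM2.5. B cell sums lay between 4850 and 5716 CPM in air and between 3602 and 4830 CPM with PM2.5. The ratios were 23.8 for mesothelial, 1.16 for endothelial and 0.114 for liver markers. Cd63 had a log2 fold change of -0.52 in spleen. The part of cell composition in the members' values was not tested. None of the 150 further pathway genes tested passed the threshold in the spleen. The smallest unadjusted p in each list belonged to Cst7 (log2 fold change -0.54), Atp6v1f (-0.67), Sort1 (0.74), Slc11a1 (0.83), Lamtor2 (-0.53) and Ulk1 (0.67).

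**Figure D3:**
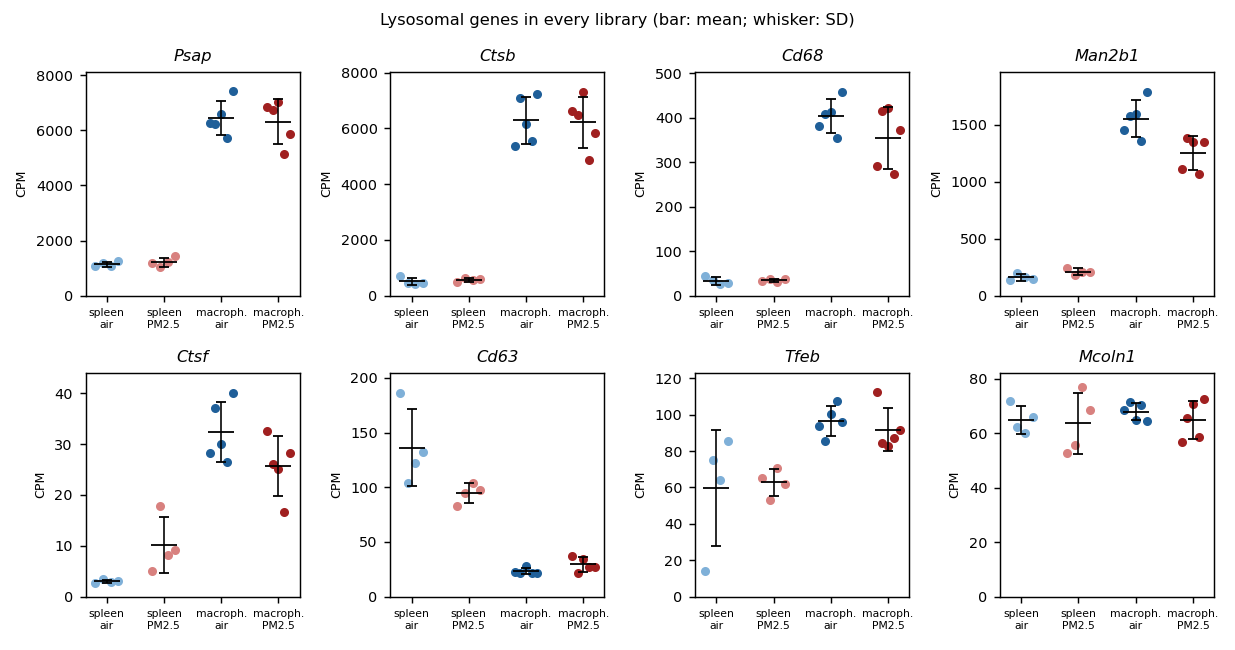
CPM of 8 of the genes in every library of the 4 groups (points), with the group mean and SD, on axes that start at 0. Psap, Ctsb, Cd68 and Man2b1 separate the materials, Cd63 is highest in spleen, and Mcoln1 overlaps between all groups. Levels of Ctsf in spleen PM2.5 range from 5.09 to 17.9 CPM, and all lie above those of the spleen air libraries.

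The same comparison in isolated macrophages also found no member past the threshold (edgeR, smallest adjusted p = 0.352, and 0 of 15696 genes, 0%). DESeq2 and limma-voom called 0 members as well, and so did each of the 19 alternative analyses. At an unadjusted p under 0.05, 2 members were higher and 4 lower, against 6.24% and 4.61% of all genes. No member had groups that did not overlap in either direction, compared with 1.38% of all genes higher and 0.860% lower. The median log2 fold change of the members was -0.07, with 34 of 44 values negative, and that of all genes 0.01. The 95% interval lay within a 2-fold change for 43 genes and within a 1.5-fold change for 40.

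Galns and Cd63 were the members higher at an unadjusted p under 0.05. Galns, a sulfatase of keratan and chondroitin sulfate, had 18.2, 18.3, 16.2, 20.9 and 14.97 CPM in air and 26.0, 19.1, 19.5, 28.9 and 21.3 CPM with PM2.5 (log2 fold change 0.37, adjusted p = 0.373). Cd63 had 22.3, 21.7, 28.4, 21.7 and 21.9 CPM in air and 37.4, 21.2, 34.5, 27.1 and 26.6 CPM with PM2.5 (0.34, adjusted p = 0.435). The library with the conflicting tag, PM2.5 replicate 1, held the highest Cd63 value, and with that library counted as air the log2 fold change was 0.09 (adjusted p = 0.906). Ctsk (0.664, 1.15, 0.682, 0.475 and 1.06 CPM with PM2.5, log2 fold change 0.54) and Smpd1 (33.2, 32.8, 30.3, 28.8 and 30.1 CPM, 0.06) were next by p and overlapped the air libraries. The Ctsk value was 0.92 without macrophage air replicate 1 and 0.34 without macrophage air replicate 2, and the Galns value 0.21 with the library of the conflicting tag counted as air.

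Man2b1 was the lower member with the smallest p: 1454, 1577, 1594, 1358 and 1789.9 CPM in air and 1111, 1385, 1349, 1069 and 1350.4 CPM with PM2.5, a log2 fold change of -0.31 (95% interval -0.54 to -0.08, adjusted p = 0.352). Only PM2.5 replicate 2 reached above the lowest air library. Ids, which acts on heparan and dermatan sulfate, had 105, 131, 131, 119.6 and 116 CPM with PM2.5 (-0.23, adjusted p = 0.380). Tfe3 had 96.3, 104, 106, 81.9 and 98.5 CPM with PM2.5 (-0.23, adjusted p = 0.381), and Naglu, an enzyme of heparan sulfate breakdown, 58.8, 69.2, 70.6, 54.4 and 67.1 CPM against 65.2, 79.3, 73.6, 73.1 and 80.0 CPM in air (-0.21, adjusted p = 0.415). With PM2.5 replicate 1 counted as air, Man2b1 was at -0.21 (adjusted p = 0.682) and Ids at -0.14 (adjusted p = 0.741).

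The abundant hydrolases overlapped between the macrophage groups. Psap had 6848, 6729, 7027, 5134 and 5857 CPM with PM2.5 (log2 fold change -0.03), Ctsb 6628, 6489, 7300.3, 4879 and 5839 CPM (-0.01), and Ctsd 1525, 1409, 1552, 939 and 1293 CPM (0.07). In all 3 the lowest value belonged to PM2.5 replicate 4. That library also had the lowest sum of macrophage markers (8979 CPM) and the highest sum of B cell markers (3627 CPM) of its group. The part of this in the values was not tested. Lamp1 (919.6, 913, 918, 706 and 823 CPM, -0.08), Cd68 (291, 416, 423, 274 and 373 CPM, -0.18), Grn (895, 833, 842, 616 and 762 CPM, -0.11) and Tfeb (112, 84.5, 82.9, 87.4 and 91.4 CPM, -0.07) did not pass the test. Neither did Tpp1 (186, 266, 268, 199 and 251 CPM, -0.19), Hexa (404, 351, 343, 283 and 319.5 CPM, -0.08), Gla (12.3, 14.8, 16.9, 13.9 and 17.8 CPM, -0.17), Mcoln1 (56.6, 65.6, 70.8, 58.4 and 72.4 CPM, -0.06) or Arsb (33.2, 43.7, 36.2, 39.8 and 34.9 CPM, -0.05).

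Beside these values, all 9 macrophage markers were negative with PM2.5 in the isolated preparations (median -0.22), with sums between 8979 and 13561 CPM against between 11621 and 16730.3 CPM in air, and none passed the adjusted threshold. All 6 B cell and all 7 neutrophil markers tested were positive (medians 0.18 and 1.91), the latter at an unadjusted p under 0.05 in 7 of 7. So were all 6 plasma cell and all 6 T cell markers (medians 1.11 and 0.51), at an unadjusted p under 0.05 in 5 and 3. Plasma cell markers summed to between 470 and 1905 CPM in air and between 1061 and 3993 CPM with PM2.5. Negative were 7 of 8 red pulp macrophage, 5 of 6 dendritic cell and all 5 endothelial markers tested. Their part in the members' values was not tested. None of the 148 further pathway genes tested passed the threshold. Those with the smallest p included Plbd1 (log2 fold change -0.35), Tmem9 (0.77), Bhlhe41 (0.56) and Wipi1 (0.56).

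Whether the PM2.5 effect differed between the materials was tested directly, as the effect in macrophages minus that in spleen over all 18 libraries. It shares all libraries with the comparisons above and is not independent of them. Of the members 1, Ctsf, passed the threshold, with a lower effect in macrophages, and 0 with a higher effect, against 1.04% and 0.416% of all 17779 genes. Ctsf in macrophages was at 32.5, 26.0, 25.2, 16.6 and 28.2 CPM with PM2.5 against between 26.5 and 40.0 CPM in air (log2 fold change -0.33), while in spleen all PM2.5 libraries were higher. The difference of the effects was -2.08 (SE 0.38, 95% interval -2.88 to -1.29, adjusted p = 0.0183). It was called in 24 of 27 alternative analyses, not with limma-voom (-1.91, adjusted p = 0.0729), not without spleen air replicates 3 and 4 (-2.003, adjusted p = 0.121) and not without spleen PM2.5 replicates 2 and 4 (-1.48, adjusted p = 0.0552). In the same test 3 of 9 macrophage markers, 3 of 8 red pulp macrophage markers and 1 of 8 erythroid markers passed the threshold with a lower effect in macrophages, as did 1 of 6 endothelial and 1 of 6 mesothelial markers. With a higher effect in macrophages, 1 of 6 monocyte and 1 of 6 T cell markers passed it.

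Man2b1 (-0.70, adjusted p = 0.0574) and Cd63 (0.86, adjusted p = 0.0611) had opposite signs in the 2 materials and did not pass the test of the difference. Each was called in 3 of 27 alternative analyses, with adjusted p reaching 0.240 and 0.326 in others. Both passed in DESeq2, as did Arsb (-0.48, adjusted p = 0.0389), which was called in 1 of 27. DESeq2 called 1044 of all genes in this test, against 259 in the main fit. The median difference over the members was -0.13, and over all genes -0.03. Of the further pathway genes Cst7, an inhibitor of cathepsins, was called, with a higher effect in macrophages (0.92, adjusted p = 0.0390).

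**Figure D4:**
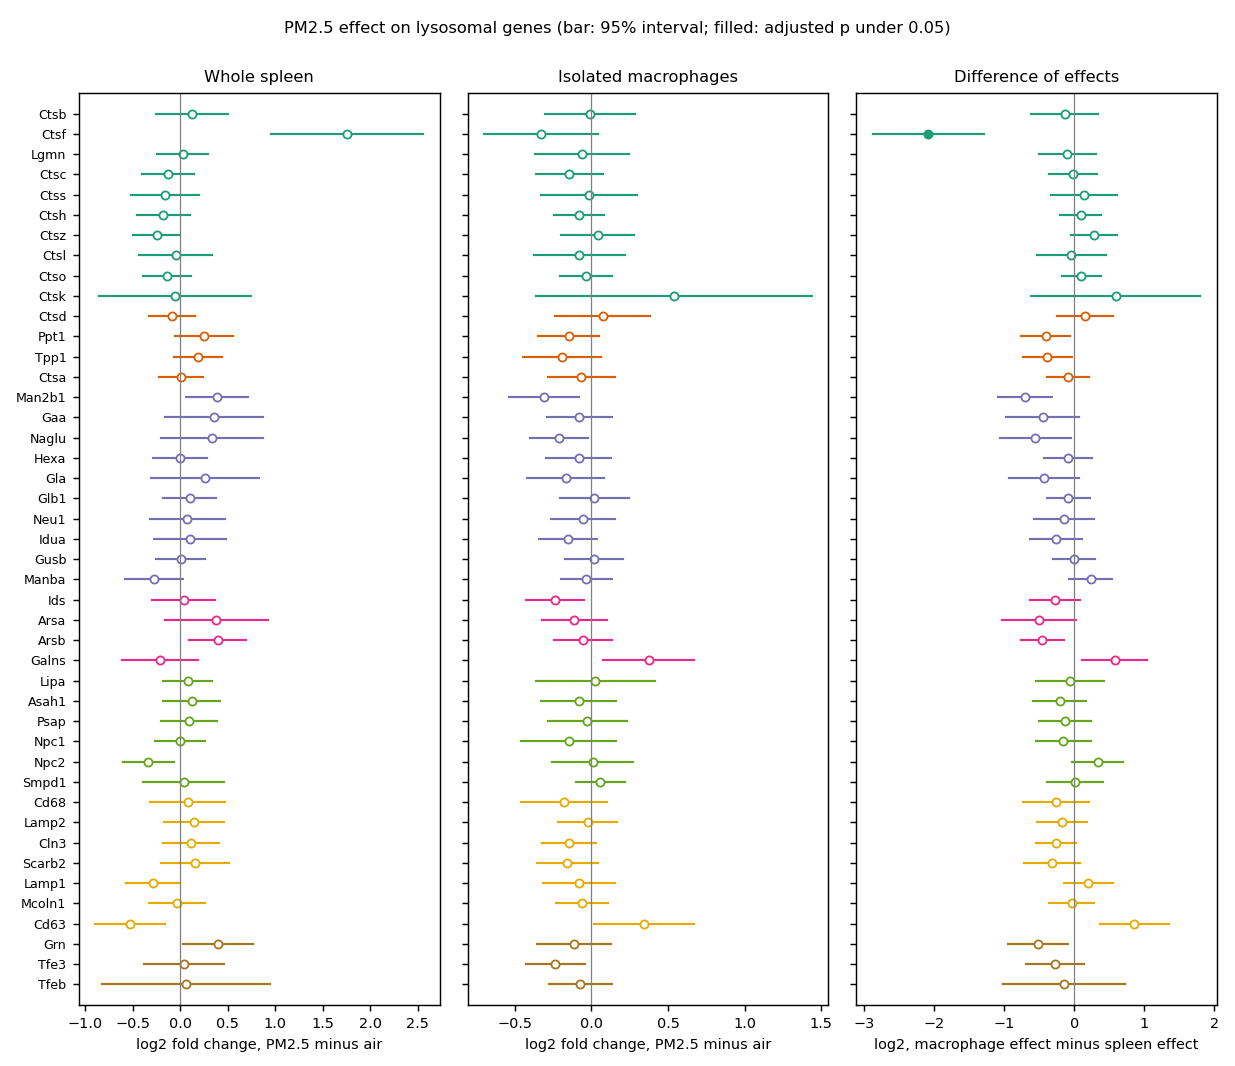
Log2 fold change of PM2.5 against air in spleen (left) and in macrophages (middle) and the difference of these effects (right) for the 44 genes, with 95% intervals as bars and colours by role. All points in the first 2 panels are open (adjusted p at or above 0.05), and Ctsf, at -2.08, is the filled point in the third.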

How the data were processed

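The authors deposited raw counts: integer read numbers for each Ensembl identifier. Per the submitters' processing notes, FastQC 0.10.1 and HTSeq 0.10.0 were used with builds named mm10 and GRCm38; aligner, annotation release and strand setting: not given in the sources used here. Per the labels, polyadenylated RNA was sequenced. Of 55414 identifiers, 3281 had no GENCODE M21 symbol (0.303% of counts).

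Genes passing filterByExpr (minimum count 10, minimum total 15) were scaled by TMM in edgeR 4.0.16 (R 4.3.3) and tested two-sided with the quasi-likelihood test, adjusted by Benjamini-Hochberg over all genes with a threshold of 0.05. Spleen and macrophages were fitted alone for PM2.5; macrophage against spleen and the difference of effects used a joint fit of 18 libraries. Scripts were tested on simulated data. Alternatives were DESeq2 1.42.0, limma-voom (limma 3.58.1), other filters and scaling, a replicate block, left-out libraries and a regrouped library. The members, lists and tests were chosen with earlier results of these data known. Values in every library are given for the called members or the 4 with the smallest p per direction (PM2.5), the 4 largest called changes per direction (macrophage against spleen), the highest and lowest member per class by length-scaled level, and Tfeb, Tfe3, Grn, Ctsd, Lamp1 and Cd68. No library was a copy of another in its group. A marker gene of the macrophage list is not reported here and was left out of its sums and counts.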

Additional observations from a re-analysis of the deposited data

Results flagged for a closer look

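In 96 groups of libraries (23 genes in 4 groups, and the summed members) the highest or lowest value was compared with the gap to its neighbour, and 5 libraries stood apart; chance alone flags about 1 in 20 groups. Cd63 was at 28.4 CPM in macrophage air replicate 3, with the others between 21.7 and 22.3 CPM. Naglu was at 29.0 CPM in spleen PM2.5 replicate 4, with the others between 23.9 and 24.8 CPM. Ctsb was at 713 CPM in spleen air replicate 1, with the others between 419 and 468 CPM. Ctsd was at 236 CPM in spleen PM2.5 replicate 1, with the others between 277 and 281 CPM. Tfeb was at 112 CPM in macrophage PM2.5 replicate 1, the library with the conflicting treatment tag, with the others between 82.9 and 91.4 CPM. The PM2.5 effect on Ctsf differed between the materials by -2.08 on the log2 scale (macrophages minus spleen), by the test of the difference itself.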

How the results depend on the processing

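The number of members called in spleen (0) was 1 with DESeq2 and with no filter on low counts and 2 in the joint fit, and lay between 0 and 1 when a library was left out. For the difference of effects (1) it was 4 with DESeq2, 0 with limma-voom, 0 without both spleen air libraries with liver transcripts, 0 without both spleen PM2.5 libraries with most erythroid transcripts, and between 1 and 3 when a library was left out (3 without spleen air replicate 2, 2 without spleen PM2.5 replicate 2 or macrophage PM2.5 replicate 2). In macrophages it stayed at 0, and between the materials it lay between 37 and 42. The log2 fold change of Smpd1 in macrophages turned to -0.0059 (adjusted p = 0.989) with the first PM2.5 library counted as air. The number of all genes called moved by over 1.5 times: in spleen from 2 to 830 with DESeq2, 461 with no filter, 12 with a floor of 1 CPM in all libraries of at least 1 group, 1050 in the joint fit, 1 with DESeq2's size factors or limma-voom, 0 without either pair of libraries, and between 0 and 219 when a library was left out; in macrophages from 0 to 175 with DESeq2, 1 with no filter and up to 17 when a library was left out; for the difference from 259 to 1044 with DESeq2, 3 with limma-voom, 9 and 48 without either pair, 87 with the first PM2.5 library counted as air, and between 68 and 1317 when a library was left out. The cause was not tested. With no filter the median of all genes shifted to 0.11 in spleen and -0.11 for the difference. Same-numbered libraries did not deviate together (correlations between -0.12 and 0.05 in spleen and between -0.11 and 0.21 in macrophages), so that the numbers were not read as pairs; with a replicate block 0 members were called in spleen, 0 in macrophages, 42 between the materials and 1 for the difference, where 91 of all genes were called. Low counts limit Ctsk most, with between 3 and 30 counts per macrophage library.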
